A study of Mus musculus with 24 samples.

Results

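The genes of cholesterol synthesis and handling were examined in neurons sorted from adult mouse cortex: 29 genes, taken from a fixed list of symbols, of the 36528 genes counted in each library. The list holds 20 genes of the synthesis path, among them Ggps1, whose enzyme acts on a branch away from sterols, and 9 genes that regulate, carry, export or turn over sterols. The study measured RNA by sequencing in 24 bulk libraries, 6 in each of the subtypes labelled EXC, PV, SST and VIP, names that the labels do not spell out. Live cells carrying a GFP or tdTomato reporter were sorted by fluorescence from papain-digested cortex, and no drug, stimulus or gene deletion is named. The labels give neither the reporter line of a subtype nor the strain, the exact age or the number of animals behind a library. Male mice gave 4 of the 6 libraries in EXC and in SST, 3 in PV and 2 in VIP, and female mice the rest. Because no label says that 2 libraries of a subtype come from different animals, p-values measure the spread between libraries, which may be technical.

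Cholesterol does not cross the blood-brain barrier in useful amounts, so the brain makes its own. Acetyl-CoA is built up to mevalonate and isoprenoids, these are joined into squalene, squalene is closed into lanosterol, and a series of oxidations and reductions turns lanosterol into cholesterol; the isoprenoids also feed protein prenylation and other products. When sterol in the endoplasmic reticulum is low, the escort protein encoded by Scap carries the transcription factors made from Srebf1 and Srebf2 to the Golgi for release, and the product of Srebf2 in particular drives genes of the synthesis path. When sterol is high, the retention proteins encoded by Insig1 and Insig2 hold them back. Adult neurons are thought to take much of their cholesterol from astrocytes through lipoproteins that carry the Apoe protein, and they shed excess by way of the hydroxylase encoded by Cyp46a1.

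Libraries held 1548907 to 15978459 counted reads, with a median of 6012251.5, and PV was the shallowest subtype, with 1548907 to 4653119. The share of reads from mitochondrially encoded genes was 14.4% to 52.9% in PV, against 3.84% to 9.86% in EXC, 4.41% to 7.87% in SST and 1.80% to 16.6% in VIP. The labels place 5 EXC and all 6 PV libraries in the sequencing pool POOL6188, VIP replicates 1 and 3 with 5 SST libraries in POOL7098, EXC replicate 3 and 4 VIP libraries in POOL7099, and SST replicate 5 in POOL7100. PV therefore shares no pool with SST or VIP, and for those comparisons pool and subtype cannot be told apart. The sorted classes matched their markers: the summed level of 6 excitatory markers was 1818 to 5066 CPM, the counts scaled to library size, in EXC and at most 918 elsewhere, and Pvalb, Sst and Vip each led their own subtype. The sum of 6 markers of GABA neurons was 277 to 786 CPM in EXC, highest in replicate 3, and at least 3478 elsewhere. EXC replicates 2, 3 and 6 stood apart. Replicates 2 and 6 had oligodendrocyte marker sums of 2987 and 2970 CPM, where the other EXC libraries had 85.0 to 819. Replicate 3 had the lowest excitatory marker sum of EXC (1818 CPM), and replicate 6 had the highest sums of astrocyte markers (4267 CPM) and endothelial markers (172 CPM) of all 24 libraries. A fold is a log2 fold change ± its standard error, and a gene is called changed where the adjusted p of edgeR's quasi-likelihood test over all 14890 genes tested is under 0.05. Of the 29 genes, 28 had enough reads to be tested, and Idi1 had not.

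VIP and PV neurons differed in many of these genes, as they did in many of all genes. In PV against VIP, 50.0% of the 28 tested genes and 48.6% of all genes tested were called. In VIP against the mean of PV and SST, 9 of the 28 tested genes were higher and 1 was lower, where 46.3% of all genes tested were called, 25.8% higher and 20.5% lower. The 9 were Hmgcs1, Fdps, Sqle, Lss, Cyp51, Msmo1, Srebf2, Insig1 and Stard4, and the gene that was lower was Cyp46a1. In PV against the mean of SST and VIP, 10 were lower and 5 higher, where 40.9% of all genes were called, 21.6% lower and 19.3% higher. The 10 were Hmgcs1, Mvd, Fdps, Sqle, Lss, Cyp51, Msmo1, Srebf2, Insig1 and Stard4, and the 5 were Pmvk, Ggps1, Srebf1, Abca1 and Cyp46a1. With the sequencing pool as a covariate none of these 5 was called, and Pmvk had a fold of 0.04 and Cyp46a1 of 0.02. The comparisons of VIP and of PV with a mean share all of their libraries, so neither is separate evidence for the other. In EXC against the mean of PV, SST and VIP, 8 were lower (Acly, Acat2, Hmgcs1, Pmvk, Ggps1, Cyp51, Tm7sf2 and Insig1) and 1 was higher (Srebf2), where 42.5% of all genes were called, 18.1% lower and 24.5% higher. In SST against the mean of PV and VIP, Cyp46a1 was higher and 0 were lower in edgeR (2 by DESeq2's Wald test), where 18.3% of all genes were called, 11.2% higher and 7.15% lower, and 3 of the 28 had an unadjusted p under 0.05. The share of these genes called in either direction was below that of all genes in EXC (32.1%), SST (3.57%) and VIP (35.7%), and above it in PV (53.6%). In VIP the calls were split 9 to 1 by direction.

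**Figure D1:**
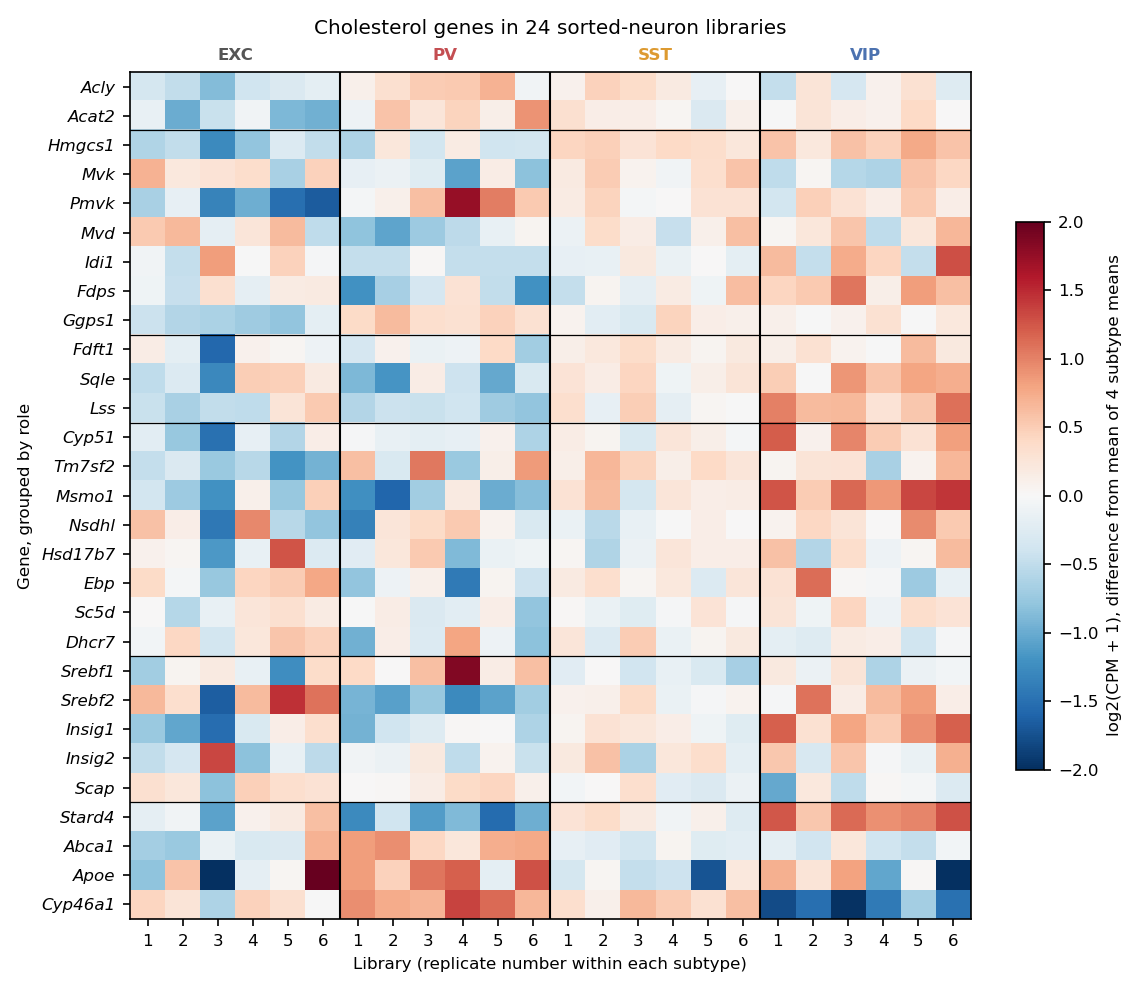
Level of the 29 genes (rows, grouped by role in the order precursor supply, mevalonate and isoprenoid steps, squalene and lanosterol steps, lanosterol to cholesterol, SREBP regulators, transport and turnover) in the 24 libraries (columns), as log2(CPM + 1) minus the mean of the 4 subtype means of that gene. Msmo1, Lss, Insig1 and Stard4 are red across VIP and mostly blue across PV, Cyp46a1 is the reverse, and EXC replicate 3 differs from the other EXC libraries in Srebf2 and Insig2.

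The upstream sequences of 5 genes called higher in VIP, and of Cyp46a1, which was called lower, are shown because the 5 code for enzymes and a regulator on which sterol-sensing factors are known to act, while Cyp46a1 varied in the other direction. Each run is the 250 bases before a transcript start in RefSeq on GRCm38.p6, written 5′ to 3′ on the strand of the gene, where the start is the one that the RefSeq promoter table lists. For Lss and Cyp46a1 that start lies inside the span RefSeq gives for the gene, so the last bases of those runs fall within it. Capitals mark matches on either strand to the CCAAT box, which binds the factor NF-Y and reads ATTGG on the other strand. They also mark matches to TCACNCCAC, a spelling of the core of the sterol regulatory element.
Hmgcs1 (chr13:119690101-119690350, plus strand): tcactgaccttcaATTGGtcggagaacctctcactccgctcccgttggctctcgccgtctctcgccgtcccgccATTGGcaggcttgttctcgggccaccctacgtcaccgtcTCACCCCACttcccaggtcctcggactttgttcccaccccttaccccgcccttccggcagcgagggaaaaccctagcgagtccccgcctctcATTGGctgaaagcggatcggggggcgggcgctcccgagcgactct
Lss (chr10:76531355-76531604, plus strand): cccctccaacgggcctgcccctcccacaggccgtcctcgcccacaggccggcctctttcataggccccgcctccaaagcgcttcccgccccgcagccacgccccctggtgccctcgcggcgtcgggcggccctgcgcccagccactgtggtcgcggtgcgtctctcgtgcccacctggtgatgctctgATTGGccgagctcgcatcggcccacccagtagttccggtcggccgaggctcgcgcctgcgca
Cyp51 (chr5:4104698-4104947, minus strand): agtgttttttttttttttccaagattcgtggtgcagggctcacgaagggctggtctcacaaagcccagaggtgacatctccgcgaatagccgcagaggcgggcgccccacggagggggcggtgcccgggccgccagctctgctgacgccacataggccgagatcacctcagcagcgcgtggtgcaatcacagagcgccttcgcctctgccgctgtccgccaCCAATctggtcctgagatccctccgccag
Msmo1 (chr8:64733579-64733828, minus strand): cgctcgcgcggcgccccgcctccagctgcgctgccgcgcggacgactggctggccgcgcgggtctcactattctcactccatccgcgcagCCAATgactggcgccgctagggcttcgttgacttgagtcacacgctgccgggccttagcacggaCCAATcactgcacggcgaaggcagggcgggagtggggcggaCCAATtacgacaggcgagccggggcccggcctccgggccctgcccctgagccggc
Insig1 (chr5:28071162-28071411, plus strand): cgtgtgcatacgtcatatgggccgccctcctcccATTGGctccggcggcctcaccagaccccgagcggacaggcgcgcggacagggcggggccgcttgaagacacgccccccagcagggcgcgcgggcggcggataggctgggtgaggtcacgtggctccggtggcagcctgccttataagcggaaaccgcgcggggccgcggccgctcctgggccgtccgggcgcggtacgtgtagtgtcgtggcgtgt
Cyp46a1 (chr12:108334066-108334315, plus strand): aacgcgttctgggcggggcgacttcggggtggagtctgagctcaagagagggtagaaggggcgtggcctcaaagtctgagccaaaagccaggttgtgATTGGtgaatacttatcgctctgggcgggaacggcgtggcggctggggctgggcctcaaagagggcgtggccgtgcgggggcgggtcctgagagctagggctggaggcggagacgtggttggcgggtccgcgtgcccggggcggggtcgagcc
Hmgcs1 holds 3 CCAAT matches and the one TCACNCCAC match of the group, Msmo1 holds 3 CCAAT matches, and Lss, Cyp51, Insig1 and Cyp46a1 hold 1 each. RefSeq promoters were matched for 25 of the 29 genes, not including Fdps, Fdft1, Sqle and Stard4. CCAAT was found upstream of 20 of the 25 (80.0%), against 37.5% of 27025 genes in the table and 39.9% of the 10906 genes both listed there and tested. GGGCGG, the GC box, whose end bases can be shared with those of CCAAT, was found at 22 of 25 (88.0%), against 35.4% and 61.6%. TCACNCCAC was found at 1 of 25 (4.00%), against 1.22% and 1.28%. No other spelling of the sterol regulatory element was searched, so a run without a match may still hold such an element. CCAAT was thus present both in genes higher in VIP and in Cyp46a1. A match describes the letters and is not evidence of binding.

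Both genes of precursor supply were lower in EXC. Acly, the enzyme that makes cytosolic acetyl-CoA from citrate (NCBI Gene 104112, chromosome 11, 100476352 to 100528000; coordinates here are GRCm38), had lowest, median and highest levels of 50.9, 67.9 and 88.5 CPM in VIP, 63.8, 78.2 and 98.4 in SST, 67.6, 95.7 and 116 in PV and 38.5, 54.8 and 62.1 in EXC. The EXC range lay under the PV and SST ranges without overlap, and it overlapped that of VIP. Acly was lower in EXC by a fold of -0.60 ± 0.14, adjusted p = 0.00129, and was higher in PV than in EXC within POOL6188 (0.74 ± 0.15, adjusted p = 0.000523). Acat2, the cytosolic thiolase that joins acetyl-CoA units, averaged 16.2 ± 1.88 CPM in VIP, 15.4 ± 2.17 in SST, 19.4 ± 5.16 in PV and 9.66 ± 3.11 in EXC (SD, n = 6). Its fold in EXC was -0.80 ± 0.18, adjusted p = 0.000848, and 65.6% of its transcript is shared with near-identical stretches of Acat3 and Tcp1, so its level is uncertain. A lower level per library can mean fewer cells with the RNA or less RNA per cell, and the 2 cannot be told apart in bulk samples.

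Among the 7 genes of the mevalonate and isoprenoid steps, Hmgcs1 followed the order VIP, SST, PV, EXC, while Pmvk and Ggps1 were highest in PV. Hmgcs1 codes for the synthase that makes HMG-CoA (NCBI Gene 208715, chromosome 13, 119690351 to 119708260), and its CCAAT and TCACNCCAC matches are printed above. It had lowest, median and highest levels of 117, 151 and 172 CPM in VIP, 119, 132 and 142 in SST, 65.8, 78.4 and 119.5 in PV and 41.7, 69.1 and 84.0 in EXC. All SST and VIP libraries lay above all EXC libraries, and the VIP and SST ranges overlapped. Its fold was 0.48 ± 0.14, adjusted p = 0.00528 in VIP, -0.65 ± 0.14, adjusted p = 0.000655 in PV and -0.88 ± 0.14, adjusted p = 5.84e-06 in EXC. The neighbouring subtypes VIP and SST did not pass the test (SST against VIP -0.21, 95% interval -0.53 to 0.10, adjusted p = 0.324).

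Pmvk, the kinase that adds the second phosphate to mevalonate, had lowest, median and highest levels of 10.5, 16.2 and 20.4 CPM in VIP, 13.5, 16.4 and 19.1 in SST, 13.5, 20.9 and 48.4 in PV and 3.66, 5.69 and 12.3 in EXC. Every PV and SST library lay above every EXC library. Its fold in EXC was -1.49 ± 0.25, adjusted p = 2.68e-05, and PV exceeded EXC within POOL6188 by 1.88 ± 0.37, adjusted p = 0.00054. Its higher level in PV (0.63 ± 0.24, adjusted p = 0.039) was called in 23 of 36 alternatives, and not without PV replicate 4, at 48.4 CPM, or without PV replicate 5. Ggps1 codes for the synthase that makes geranylgeranyl diphosphate, a lipid used to anchor small GTPases and not a step toward sterols (NCBI Gene 14593, chromosome 13, 14049790 to 14063566). It had lowest, median and highest levels of 109, 117 and 136 CPM in VIP, 88.3, 117 and 149 in SST, 135, 141 and 170.1 in PV and 62.7, 71.4 and 95.1 in EXC, and all PV and VIP libraries lay above all EXC libraries. Its fold was -0.73 ± 0.11, adjusted p = 6.63e-06 in EXC and 0.33 ± 0.11, adjusted p = 0.0226 in PV, where the call held in 31 of 36 alternatives. Near-identical stretches in other genes cover 27.3% of its transcript.

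The remaining genes of these steps had few uniquely aligned reads. Mvd, the decarboxylase that yields isopentenyl diphosphate, averaged 2.61 ± 0.964 CPM in VIP, 2.36 ± 0.836 in SST, 1.18 ± 0.643 in PV and 2.71 ± 1.10 in EXC, from 17 reads in all 6 PV libraries together. Its fold in PV of -1.12 ± 0.42, adjusted p = 0.0352 held in 25 of 35 alternatives, and was lost without any 1 of PV replicates 1 to 4, SST replicate 6 or VIP replicates 3 and 6. Fdps, which makes farnesyl diphosphate, averaged 2.58 ± 0.819 CPM in VIP, 1.41 ± 0.649 in SST, 0.635 ± 0.686 in PV and 1.34 ± 0.450 in EXC, with 11 reads in PV and none in PV replicates 1 and 6. Its fold was 1.30 ± 0.41, adjusted p = 0.0119 in VIP and -1.35 ± 0.51, adjusted p = 0.0347 in PV, the latter held in 25 of 35 alternatives. The VIP call was lost without the filter on low counts (adjusted p = 0.0739) and with the pool as a covariate (adjusted p = 0.325). Since 6 other genes hold near-identical copies that cover 91.4% of its transcript, its count of uniquely aligned reads may miss most of its RNA. Idi1, the isopentenyl diphosphate isomerase, had 43 reads in VIP, 24 in SST, 23 in EXC and 1 in PV, with no read in 5 of 6 PV libraries. In POOL7098 alone it stood at 1.17 and 1.33 CPM in VIP replicates 1 and 3, and at 0.218 to 0.594 CPM in SST. It passed the filter there only through those VIP libraries. Its fold in SST against VIP (-1.99 ± 0.71) is therefore a description and not a test. Near-identical stretches in 3 other genes cover 33.3% of its transcript. Mvk, the mevalonate kinase, averaged 2.57 ± 1.32 CPM in VIP, 3.43 ± 0.764 in SST, 1.93 ± 0.863 in PV and 3.42 ± 1.18 in EXC and was not called in any of the comparisons of a subtype with a mean.

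Of the 3 genes that make and close squalene, Sqle and Lss were higher in VIP and lower in PV, and Fdft1 was called in neither. Sqle, the squalene epoxidase and a slow step of the path (NCBI Gene 20775, chromosome 15, 59315092 to 59331193), had lowest, median and highest levels of 37.0, 58.9 and 69.2 CPM in VIP, 35.0, 43.0 and 50.6 in SST, 15.9, 23.6 and 41.1 in PV and 14.6, 36.4 and 52.5 in EXC. Its PV and VIP ranges overlapped between 37.0 and 41.1 CPM, through PV replicate 3 and VIP replicate 2. Its fold was 0.81 ± 0.22, adjusted p = 0.00366 in VIP and -0.97 ± 0.24, adjusted p = 0.00198 in PV. The VIP and SST ranges of Sqle also overlapped, and that pair did not pass edgeR's test (adjusted p = 0.202). Lss, the cyclase that makes lanosterol (NCBI Gene 16987, chromosome 10, 76531565 to 76557139), had lowest, median and highest levels of 21.4, 27.6 and 38.3 CPM in VIP, 15.2, 17.6 and 24.8 in SST, 9.66, 11.9 and 12.9 in PV and 10.7, 12.3 and 25.4 in EXC. All VIP and all SST libraries lay above all PV libraries. Its fold was 1.08 ± 0.18, adjusted p = 2.79e-05 in VIP and -1.02 ± 0.20, adjusted p = 0.000191 in PV, and SST stood below VIP within POOL7098 (-0.70 ± 0.22, adjusted p = 0.0219). Fdft1, the squalene synthase, averaged 43.7 ± 7.57 CPM in VIP, 42.3 ± 3.27 in SST, 34.7 ± 8.99 in PV and 32.9 ± 10.8 in EXC. Among the comparisons with a mean its widest fold was -0.29 ± 0.19, adjusted p = 0.239, in PV, and 54.7% of its transcript is shared with other genes, among them the overlapping Ctsb.

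**Figure D2:**
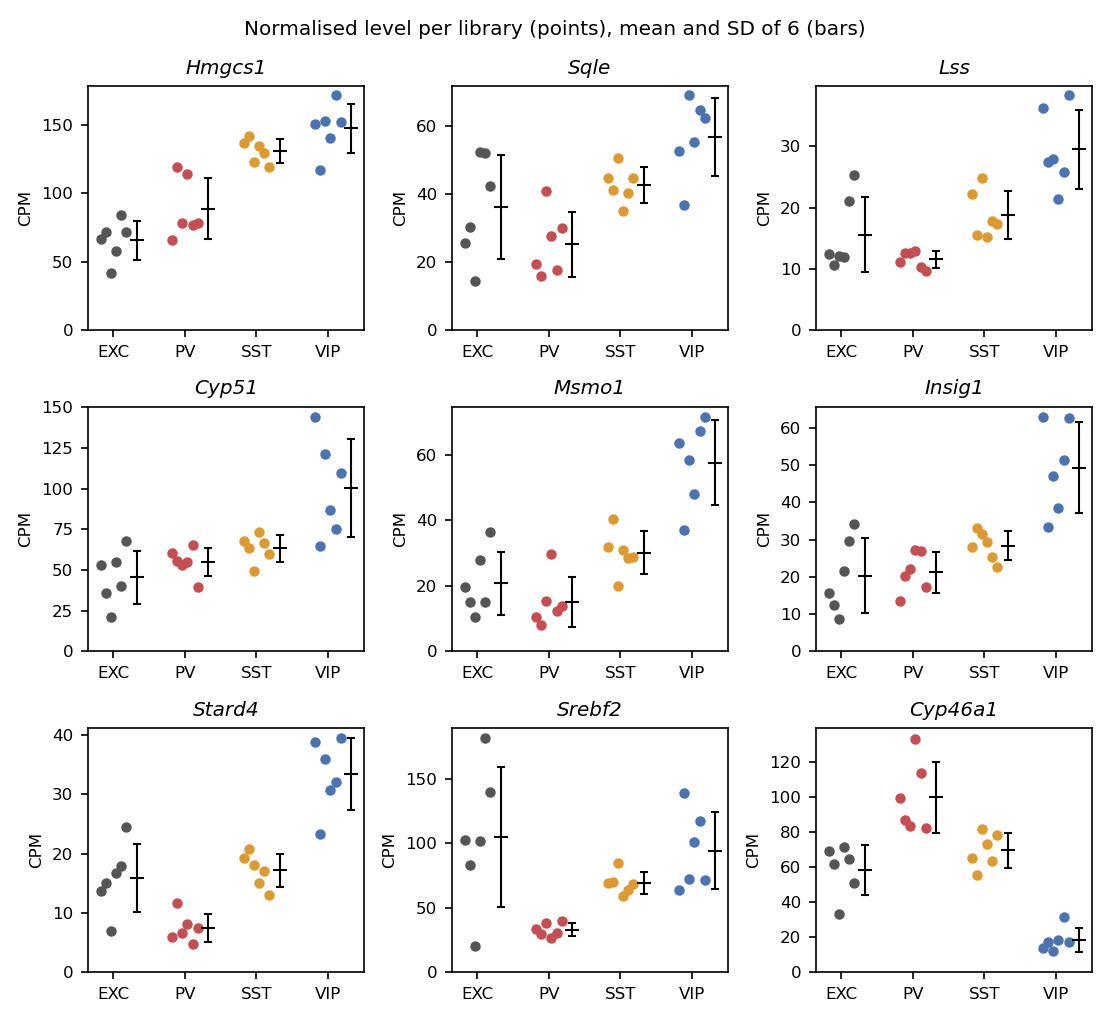
Normalised level (CPM, linear axes from 0) of 9 genes in each of the 24 libraries, with 1 point per library and the mean and SD of 6 beside them. Msmo1, Lss, Insig1 and Stard4 in VIP lie above every PV library, and all VIP values of Cyp46a1, 12.4 to 31.6, lie below those of the other subtypes.

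On the way from lanosterol to cholesterol, the oxidising enzymes Cyp51 and Msmo1 were higher in VIP, and 5 genes of the later steps passed no test. Cyp51, the demethylase that acts on lanosterol (NCBI Gene 13121, chromosome 5, 4080674 to 4104697), had lowest, median and highest levels of 65.0, 98.2 and 144 CPM in VIP, 49.4, 64.9 and 73.1 in SST, 39.7, 55.0 and 65.3 in PV and 21.2, 46.6 and 67.6 in EXC. VIP overlapped SST and PV at its low end, from replicate 2. Its fold was 0.78 ± 0.19, adjusted p = 0.00136 in VIP, -0.53 ± 0.19, adjusted p = 0.0305 in PV and -0.64 ± 0.18, adjusted p = 0.0062 in EXC, and the PV call was lost without any 1 of PV replicates 2, 3, 4 and 6. Within POOL7098 SST was lower than VIP by a fold of -0.99 ± 0.19, adjusted p = 0.00109. Msmo1, the methylsterol monooxygenase of the next steps (NCBI Gene 66234, chromosome 8, 64718123 to 64733578), had lowest, median and highest levels of 37.0, 61.0 and 71.4 CPM in VIP, 20.043, 29.9 and 40.5 in SST, 7.97, 13.2 and 29.6 in PV and 10.6, 17.4 and 36.6 in EXC. Every VIP library lay above every EXC and PV library, and VIP replicate 2 lay under the highest SST library. Its fold was 1.48 ± 0.23, adjusted p = 1.3e-05 in VIP and -1.46 ± 0.26, adjusted p = 8.32e-05 in PV, and SST was lower than VIP within POOL7098 (-0.92 ± 0.23, adjusted p = 0.00572).

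Tm7sf2, a sterol reductase that works beside the product of Lbr, averaged 3.61 ± 1.26 CPM in VIP, 4.23 ± 0.790 in SST, 4.42 ± 2.38 in PV and 1.59 ± 0.578 in EXC. It was lower in EXC (-1.29 ± 0.33, adjusted p = 0.00224), and PV stood above EXC within POOL6188 (1.29 ± 0.49, adjusted p = 0.0398). With the pool as a covariate the EXC call was lost (adjusted p = 0.141). All 6 EXC libraries together held 68 reads and all 6 PV libraries 56. Its gene overlaps Vps51 and the strand setting of the counts is not given. Nsdhl, Hsd17b7, Ebp, Sc5d and Dhcr7, which remove methyl groups, shift the ring double bond and reduce the last one, were called in none of the comparisons of a subtype with a mean. Their subtype means lay between 13.8 and 19.996 CPM for Nsdhl, 33.4 and 39.9 for Hsd17b7, 3.44 and 5.86 for Ebp, 22.5 and 28.8 for Sc5d, and 13.1 and 16.7 for Dhcr7. For Sc5d the VIP fold had a 95% interval of 0.03 to 0.63, and for Dhcr7 one of -0.54 to 0.35. The Msmo1 fold of 1.48 lies outside both intervals.

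The regulators did not move together. Srebf2, whose product drives the synthesis genes (NCBI Gene 20788, chromosome 15, 82147269 to 82205379), had lowest, median and highest levels of 63.9, 86.8 and 139 CPM in VIP, 59.5, 68.6 and 84.9 in SST, 26.3, 32.1 and 39.7 in PV and 20.1, 102 and 181 in EXC. All PV libraries lay under all SST and VIP libraries, and EXC spread widest, from 20.1 CPM in replicate 3 to 181 in replicate 5. Its fold was -1.30 ± 0.28, adjusted p = 0.000548 in PV, 0.99 ± 0.25, adjusted p = 0.00252 in VIP and 0.80 ± 0.23, adjusted p = 0.0065 in EXC. PV was lower than EXC within POOL6188 (-1.84 ± 0.20, adjusted p = 1.24e-06). Over all libraries, EXC differed from PV in edgeR's test (adjusted p = 8.84e-05) but not from VIP (adjusted p = 0.737). Srebf2 was not called in SST against EXC either, so EXC was higher than PV alone. The difference between SST and VIP did not pass the test, either over all libraries (-0.45 ± 0.30, adjusted p = 0.262) or within POOL7098 (0.11 ± 0.20, adjusted p = 0.681). The EXC call was lost without EXC replicate 5 (adjusted p = 0.056), and the fold became -1.07 with the pool as a covariate, a fit that joins POOL6188 to the VIP pools through EXC replicate 3 alone. Insig1, the retention protein whose RNA is itself a target of SREBP (NCBI Gene 231070, chromosome 5, 28071412 to 28078662), had lowest, median and highest levels of 33.5, 49.3 and 62.9 CPM in VIP, 22.6, 28.7 and 33.2 in SST, 13.5, 21.2 and 27.4 in PV and 8.67, 18.6 and 34.2 in EXC. Every VIP library lay above every PV and SST library. Its fold was 1.05 ± 0.21, adjusted p = 0.000233 in VIP, -0.77 ± 0.23, adjusted p = 0.00833 in PV and -0.68 ± 0.21, adjusted p = 0.0117 in EXC, and without PV replicates 1 and 6 the PV call was lost (adjusted p = 0.062).

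Srebf1, which in many tissues acts more on fatty acid genes, averaged 8.52 ± 1.92 CPM in VIP, 7.16 ± 1.25 in SST, 15.5 ± 9.49 in PV and 7.84 ± 3.18 in EXC. It was higher in PV (0.97 ± 0.27, adjusted p = 0.00501) and higher in PV than in EXC within POOL6188 (1.10 ± 0.41, adjusted p = 0.0362), but PV replicate 4 alone held 34.4 CPM, the next PV library 14.0, and the call was lost without replicate 4 and with the pool as a covariate. Rai1 overlaps this gene. Insig2 averaged 95.9 ± 28.1 CPM in VIP, 87.1 ± 24.3 in SST, 72.4 ± 13.8 in PV and 81.5 ± 59.6 in EXC and was not called. Its EXC mean was raised by replicate 3, at 202 CPM where the other 5 EXC libraries had 44.0 to 71.0. Scap, the escort protein, averaged 31.7 ± 9.12 CPM in VIP, 36.0 ± 6.05 in SST, 42.5 ± 5.68 in PV and 42.4 ± 11.1 in EXC and was not called over all libraries. Within POOL7098 it was higher in SST than in VIP (0.84 ± 0.24, adjusted p = 0.0136). With the pool as a covariate, Insig2 and Scap reversed direction in EXC, PV and SST.

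Transport and turnover held the widest contrasts. Stard4, a carrier that moves cholesterol between membranes in the cytosol (NCBI Gene 170459), had lowest, median and highest levels of 23.3, 34.0 and 39.4 CPM in VIP, 13.0, 17.6 and 20.7 in SST, 4.81, 7.11 and 11.7 in PV and 6.98, 15.9 and 24.5 in EXC. Every VIP library lay above every SST library, and every SST library above every PV library. Its fold was 1.66 ± 0.20, adjusted p = 1.6e-07 in VIP and -1.70 ± 0.23, adjusted p = 1.12e-06 in PV. Stard4 was lower in PV than in EXC within POOL6188 (-1.19 ± 0.27, adjusted p = 0.00159) and lower in SST than in VIP within POOL7098 (-1.09 ± 0.20, adjusted p = 0.000687). Cyp46a1, the hydroxylase that turns cholesterol into a form that leaves the brain (NCBI Gene 13116, chromosome 12, 108334268 to 108362234), ran the other way, with lowest, median and highest levels of 12.4, 17.5 and 31.6 CPM in VIP, 55.5, 69.5 and 81.7 in SST, 82.6, 93.3 and 134 in PV and 33.4, 63.2 and 71.6 in EXC. No VIP library reached the lowest library of another subtype, and every PV library lay above every EXC and SST library. Its fold was -2.16 ± 0.20, adjusted p = 1.64e-09 in VIP, 1.48 ± 0.17, adjusted p = 1.09e-07 in PV and 0.68 ± 0.17, adjusted p = 0.00534 in SST. SST exceeded VIP within POOL7098 (2.51 ± 0.25, adjusted p = 3.02e-06) and PV exceeded EXC within POOL6188 (0.67 ± 0.15, adjusted p = 0.00168). With the pool as a covariate the PV fold was 0.02 and not called, while the VIP fold stayed between -2.41 and -1.82 and called over all 36 alternatives.

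Abca1, the exporter that loads cholesterol onto apolipoproteins (NCBI Gene 11303, chromosome 4, 53030789 to 53159988), had lowest, median and highest levels of 17.7, 20.4 and 29.3 CPM in VIP, 19.3, 21.4 and 26.1 in SST, 29.6, 42.4 and 48.7 in PV and 14.6, 20.2 and 41.1 in EXC. All PV libraries lay above all SST and VIP libraries, and EXC replicate 6, at 41.1 CPM, lay within the PV range. Its fold in PV was 0.88 ± 0.18, adjusted p = 0.000384, and PV exceeded EXC within POOL6188 by 0.95 ± 0.25, adjusted p = 0.0053. With the pool as a covariate the PV call was lost (adjusted p = 0.12). Apoe, the apolipoprotein that glia supply, had lowest, median and highest levels of 1.32, 21.9 and 35.2 CPM in VIP, 5.26, 14.9 and 23.0 in SST, 17.0, 39.1 and 49.4 in PV and 3.81, 18.8 and 165 in EXC. It was not called in any comparison over all libraries, and the EXC mean of 41.2 ± 61.1 CPM rested on replicate 6, at 165 CPM where the other EXC libraries had 3.81 to 30.0. That library also had the highest astrocyte marker sum, 4267 CPM where the other EXC libraries had 501 to 1733. In VIP, Apoe ran from 1.32 CPM in replicate 6 to 35.2 in replicate 3, and within POOL7098 it was lower in SST than in VIP replicates 1 and 3 (-0.86 ± 0.23, adjusted p = 0.00885). The part of glial RNA in these levels was not tested.

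Summed by role, the synthesis genes as a whole stood at 776 ± 67.2 CPM in VIP, 659 ± 23.4 in SST, 608 ± 68.9 in PV and 472 ± 92.7 in EXC (SD, n = 6). EXC libraries ran from 301 to 547 and SST libraries from 628 to 695, without overlap. The mevalonate and isoprenoid sum was 155 ± 19.5 CPM in EXC, where no library reached 225, the lowest of the other subtypes. The sum from lanosterol to cholesterol was 269 ± 51.8 CPM in VIP against 162 ± 20.7 in PV. Transport and turnover ran the other way, at 184 ± 17.8 CPM in PV and 94.1 ± 15.0 in VIP, and the EXC value of 138 ± 73.6 rested on replicate 6, with 281 CPM. A sum is led by its most abundant genes and is given here with no test. Ggps1 alone contributed 119 ± 10.5 CPM to the synthesis sum in VIP and 146 ± 13.4 in PV. In the order of subtype means, VIP was highest for 14 of the 29 genes, PV for 9, EXC for 5 and SST for 1, and PV was lowest for 14, EXC for 9, and SST and VIP for 3 each. That order includes Idi1 and genes that passed no test, and it was not counted over all genes.

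**Figure D3:**
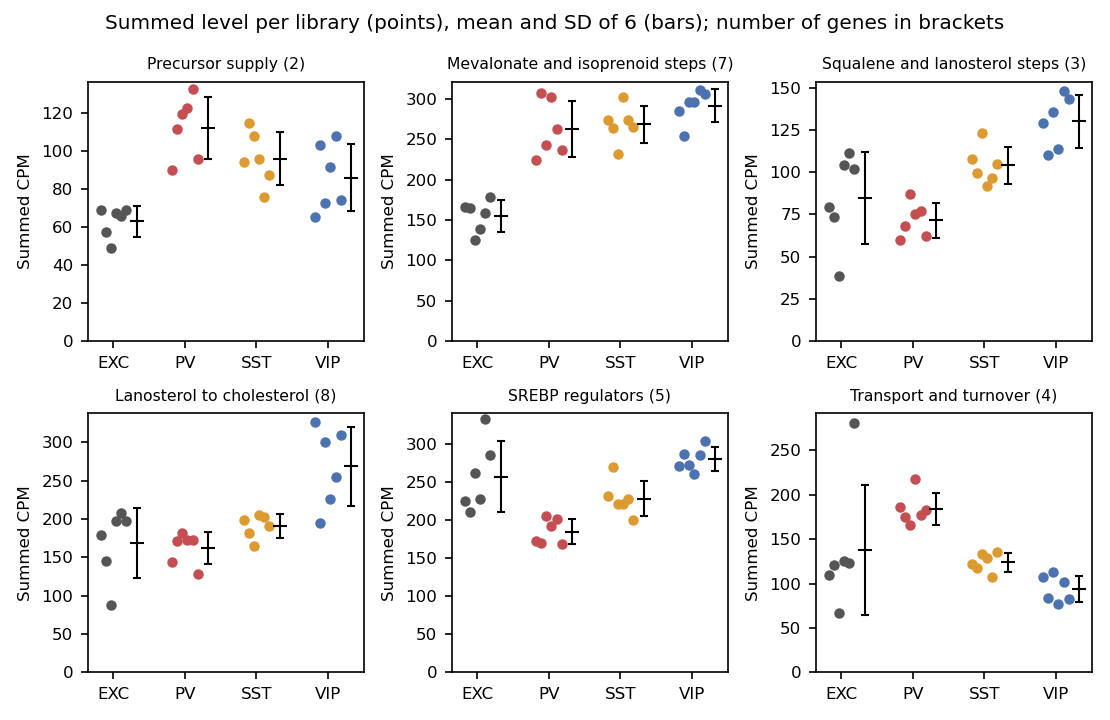
Summed CPM of the genes of each role in each library (linear axes from 0), with the mean and SD of 6 beside the points and the number of genes in brackets. EXC lies lowest for precursor supply and mevalonate steps, VIP highest on average for the steps after squalene, and 1 EXC library stands apart at 281 in transport and turnover.

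Per length of gene, on the deposited RPKM scale, the leading gene differed between subtypes. Hmgcs1 ranked first of the 29 in VIP (24.3 ± 3.07 RPKM) and SST (20.5 ± 1.38), Cyp46a1 first in PV (20.1 ± 3.98) and Apoe first in EXC (17.5 ± 26.2), where its SD exceeded its mean. Msmo1 ranked second in VIP at 19.2 ± 4.59 RPKM. Idi1 ranked last in all 4 subtypes and Fdps next to last in EXC, PV and SST, both genes with near-identical copies elsewhere.

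**Figure D4:**
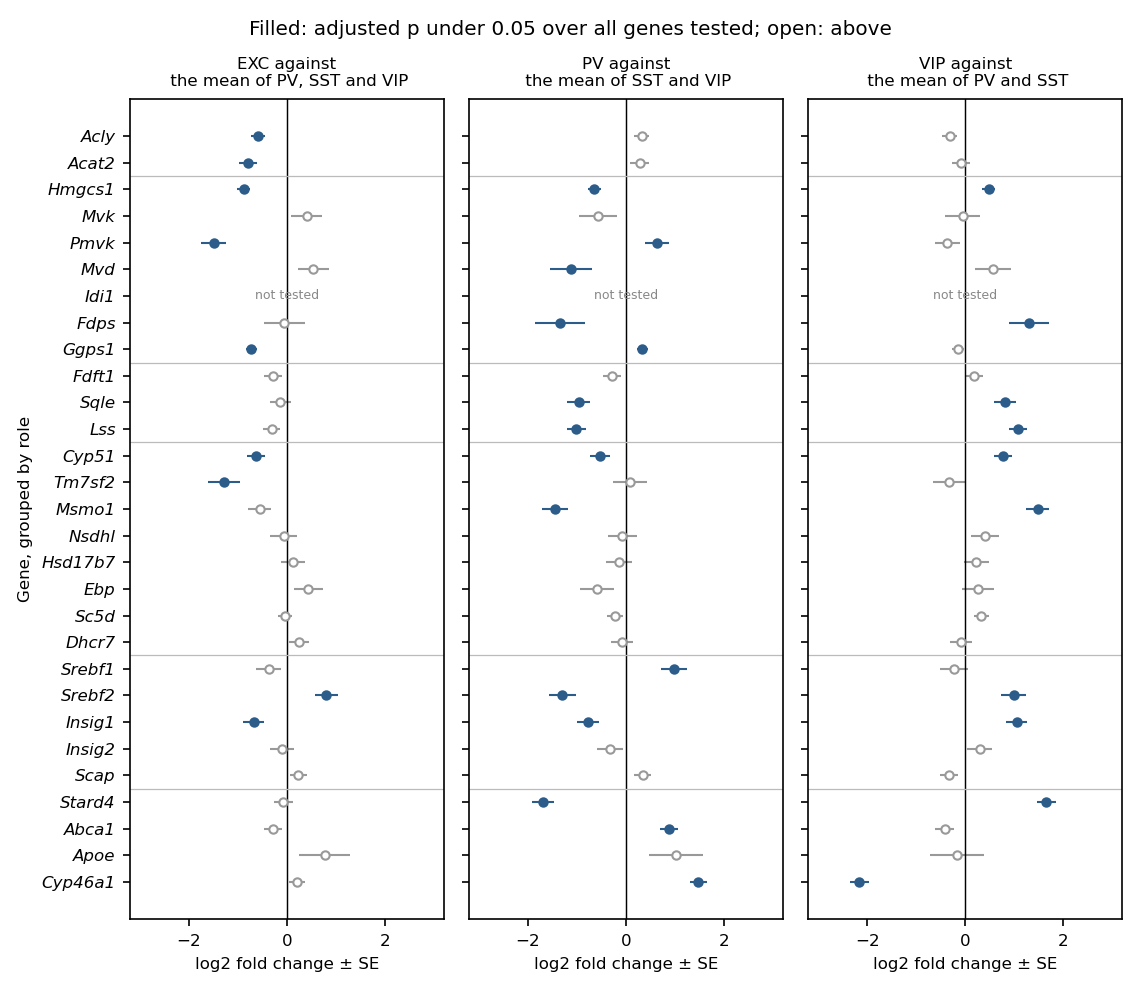
Log2 fold change ± SE of 28 genes in EXC, PV and VIP, each against the mean named above its panel, with filled points for an adjusted p under 0.05 over all 14890 genes. VIP has 9 filled points above 0 and Cyp46a1 at -2.16, while PV has 10 below 0 and 5 above.

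Subtypes were also compared in pairs, which share libraries with each other and with the comparisons above. PV against VIP had 4 genes higher and 10 lower, where 48.6% of all genes were called, 21.9% higher and 26.7% lower, and its most negative fold was that of Stard4 (-2.24 ± 0.25, adjusted p = 5.51e-08). VIP against EXC had 11 higher and 1 lower against a background of 39.1%, 18.4% higher and 20.7% lower. Msmo1 had the largest rise (1.54 ± 0.28, adjusted p = 7.64e-05), and Cyp46a1 was lower (-1.64 ± 0.21, adjusted p = 4.38e-07). PV against EXC had 9 higher and 3 lower against 45.9%, 20.3% higher and 25.6% lower. SST against EXC had 6 higher and 0 lower against 38.4%, 17.1% higher and 21.3% lower, with 9 genes at an unadjusted p under 0.05 in edgeR. PV against SST had 2 higher and 6 lower against 26.3%, 11.4% higher and 14.9% lower. SST against VIP had 1 higher (Cyp46a1) and 5 lower (Lss, Cyp51, Msmo1, Insig1 and Stard4) against 31.3%, 14.6% higher and 16.7% lower. Any difference among the subtypes was called for 17 of 28 genes, where 68.5% of all genes were called. The other 11 were Mvk, Mvd, Fdft1, Nsdhl, Hsd17b7, Ebp, Sc5d, Dhcr7, Insig2, Scap and Apoe.

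Within pools, where libraries were sequenced together, PV against EXC in POOL6188 (6 and 5 libraries) had 8 genes higher and 2 lower of 26 tested, where 45.7% of all genes were called, 21.8% higher and 23.9% lower. Acly, Acat2, Pmvk, Ggps1, Tm7sf2, Srebf1, Abca1 and Cyp46a1 were higher, and Srebf2 and Stard4 were lower. SST against VIP in POOL7098 (5 and 2 libraries) had 4 higher and 7 lower of 29 tested, where 41.8% of all genes were called, 20.6% higher and 21.2% lower. Acly, Mvk, Scap and Cyp46a1 were higher in SST, and Idi1, Lss, Cyp51, Msmo1, Insig1, Stard4 and Apoe were lower. Idi1 passed the filter in this pool only through its level in VIP, so its call is not a test result. Hmgcs1, Sqle, Fdps and Srebf2, which were called higher in VIP over all libraries, did not pass in this pool, with folds of -0.13, -0.42, -0.87 and 0.11. The 2 within-pool comparisons have no library in common.

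**Figure D5:**
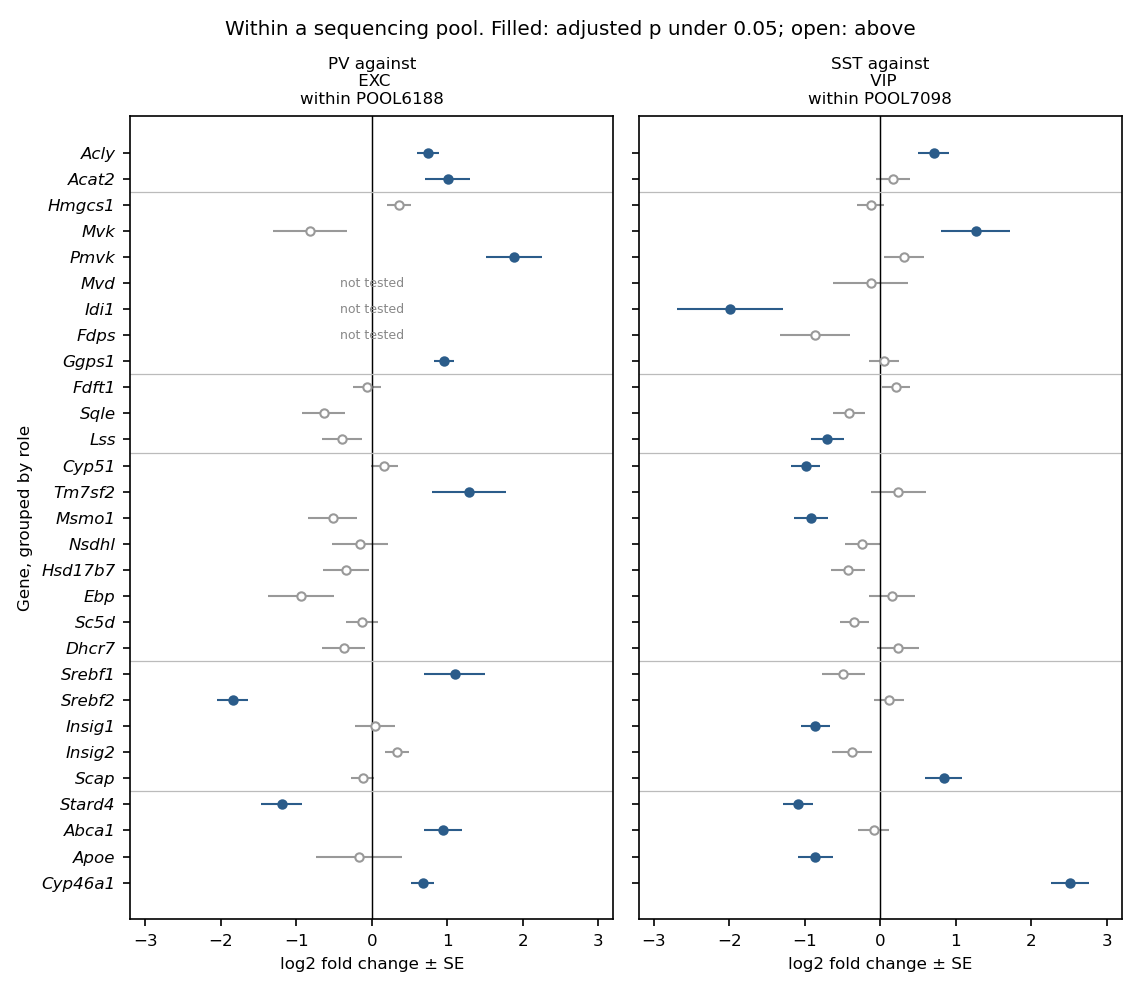
Log2 fold change ± SE within a sequencing pool, PV against EXC in POOL6188 and SST against VIP in POOL7098, with filled points for an adjusted p under 0.05. Stard4 is below 0 and Cyp46a1 above 0 and filled in both panels, and Srebf2 is filled at -1.84 in the first panel and open in the second.

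Other values moved with these results. The summed astrocyte markers were 1129 to 1651 CPM in VIP, 239 to 346 in SST, 249.9 to 792 in PV and 501 to 4267 in EXC. In VIP, 3 of the 10 markers were higher than in PV and SST and 1 was lower, where 25.8% of all genes were higher and 20.5% lower. Slc1a2, a glutamate transporter that neurons can also express, made up 92.1% of the VIP sum, and without it the range was 48.9 to 147 CPM in VIP, 22.9 to 46.8 in SST and 111 to 264 in PV. Of 7 oligodendrocyte markers tested 0 were called in VIP by edgeR, with 2 at an unadjusted p under 0.05. Pdgfra, a marker of oligodendrocyte precursors, stood at 16.2 ± 2.69 CPM in VIP, 0.928 ± 0.587 in SST and 0.677 ± 0.766 in PV. It was the 1 marker of its list to pass the filter on low counts, and passed only through the VIP libraries. Its fold of 4.27 in VIP is therefore a description and not a test. Cspg4, Olig1 and Olig2, of the same list, were not higher in VIP, at means of 0.388, 0.631 and 0.231 CPM. Their means were 0.443, 0.793 and 0.369 CPM in SST and 0.841, 0.830 and 0.355 in PV. In PV, 5 of 10 astrocyte and 3 of 6 mural markers were higher than in SST and VIP, where 19.3% of all genes were. Of the ciliated or choroid plexus markers 3 of 5 were called higher in PV. However, Foxj1, Ccdc153 and Tmem212 passed the filter on low counts only through the PV libraries, so their calls are not a test. No library outside PV exceeded 2.04 CPM for Foxj1, 0.846 for Ccdc153 or 0.133 for Tmem212. The ciliated and choroid plexus sum was 21.2 to 121 CPM in PV, 5.42 to 9.15 in SST and 0.933 to 11.4 in VIP, and Ccdc153, the most abundant of them in PV at 17.5 ± 7.43 CPM, had no read in VIP. In EXC 7 of 7 oligodendrocyte, 6 of 8 microglial and 5 of 10 astrocyte markers were higher, where 24.5% of all genes were. Without EXC replicates 3 and 6, the genes called lower in EXC numbered 12 in place of 8. Without PV replicates 1 and 6, which had 45.3% and 52.9% mitochondrial reads, the genes called lower in PV numbered 6 in place of 10, and those called higher in VIP stayed at 9. Leaving out libraries can change the calls of any gene, and the shares of all genes called in these fits are not given here. With mitochondrially encoded genes left out, each of the 35 calls in the comparisons with a mean was kept. The part of other cells and of RNA quality in these levels was not tested.

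No sex difference was detectable. Of the 28 genes 0 were called between female and male libraries by edgeR, where 0.0403% of all genes were called, 0.0134% higher and 0.0269% lower in female libraries. Of the 28, 0 had an unadjusted p under 0.05, and the smallest unadjusted p was 0.071, for Lss. DESeq2's Wald test also called 0. A sex difference that itself differed among subtypes was called for 0 genes by edgeR, with 0 at an unadjusted p under 0.05, where 0% of all genes were called. With 2 to 4 libraries per sex and subtype, small differences were not detectable.

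Neighbouring pathways were read from 3 further lists, also chosen with earlier results known. Of 19 tested genes of other sterol handling, 5 were higher and 6 lower in VIP, 6 higher and 5 lower in PV, 5 higher and 2 lower in EXC, and 0 called in SST by edgeR, with 0 at an unadjusted p under 0.05. The shares called were 57.9% in VIP and in PV, 36.8% in EXC and 0% in SST, beside 46.3%, 40.9%, 42.5% and 18.3% of all genes. Lbr, a sterol reductase and nuclear envelope protein, stood at 14.1 ± 5.72 CPM in VIP against 5.17 ± 1.23 in PV, a fold of 1.21 ± 0.24 in VIP. Gramd1b, which moves plasma membrane cholesterol to the endoplasmic reticulum, stood at 508 ± 60.9 CPM in PV and 193 ± 10.1 in VIP, a fold of 1.16 ± 0.13 in PV. Soat1, which makes cholesterol esters, was also higher in PV (31.4 ± 5.49 against 15.1 ± 3.40 CPM in VIP, fold 0.92 ± 0.20), and Lipa, the lysosomal lipase that frees cholesterol from esters, was lower in VIP (-0.84 ± 0.19). Abcg4, a sterol exporter, was lower in EXC (-0.77 ± 0.15).

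Of 16 fatty acid genes known as SREBP targets, 5 were higher and 2 lower in VIP, 2 higher and 2 lower in PV, 4 higher and 4 lower in EXC, and 0 higher and 1 lower in SST. The shares called were 43.8% in VIP, 25.0% in PV, 50.0% in EXC and 6.25% in SST, beside 46.3%, 40.9%, 42.5% and 18.3% of all genes. Me1, which supplies NADPH for lipid synthesis, stood at 1.83 ± 1.85 CPM in PV and 11.4 ± 2.11 in VIP, with folds of -2.25 ± 0.37 in PV and 1.97 ± 0.29 in VIP. Acsl3, which activates fatty acids, ran the other way, at 477 ± 94.1 CPM in PV and 139 ± 17.7 in VIP, with folds of 1.58 ± 0.17 and -1.09 ± 0.19. Acss2, which makes acetyl-CoA from acetate, was lower in SST (-1.35 ± 0.20). The EXC value of Scd1, 63.7 ± 77.2 CPM, had an SD above its mean. Of 13 genes that use isoprenoids, 2 were higher and 3 lower in VIP, 2 higher and 2 lower in PV, 0 higher and 3 lower in EXC, and 0 called in SST by edgeR, with 2 at an unadjusted p under 0.05. The shares called were 38.5% in VIP, 30.8% in PV and 23.1% in EXC, each below that of all genes. Fnta, a subunit of 2 prenyl transferases, was higher in PV (59.7 ± 13.2 against 23.4 ± 4.02 CPM in VIP, fold 1.18 ± 0.19). Pdss1, which builds the tail of coenzyme Q, was higher in VIP (1.54 ± 0.32), and Nus1, a subunit of the dolichol synthase, lower in PV (-0.57 ± 0.12). These folds each had an adjusted p under 0.05 in edgeR.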

How the data were processed

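RNA from sorted cortical neurons was profiled in 24 bulk libraries, 6 per subtype, grouped by the subtype label and numbered in order of deposition. Per the submitters' processing notes, reads were aligned with GSNAP to GRCm38. The deposited counts are uniquely aligned reads per gene and the deposited RPKM values are adjusted by size factors, both per the file headers. The aligner's version, the counting program, its annotation and its strand setting were not given in the sources used here. RPKM served only to rank genes within a subtype.

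Counts of 36528 NCBI Gene entries were filtered with filterByExpr, scaled by TMM and fitted in edgeR 4.0.16 (R 4.3.3) with terms for subtype and sex over all 24 libraries. Quasi-likelihood F tests with Benjamini-Hochberg adjustment over 14890 genes gave p-values. The standard error is the fold divided by the square root of F. Libraries of POOL6188 and POOL7098 were also fitted alone. Scripts were tested on simulated data. Intervals at 95% use the normal approximation. Alternatives were DESeq2 1.42.0, other size factors, other filters, mitochondrially encoded genes left out, the pool or no sex as covariates, robust empirical Bayes, and libraries left out. Sums without Slc1a2 and the fits without 2 EXC or 2 PV libraries were added after seeing the data. The genes and lists were chosen with earlier results of these data known. All 29 genes are described; of each further list, up to 3 called genes of the largest fold per comparison with at least 10 CPM were eligible. Copies were sought with blastn at 95% identity over at least 100 bases. A level of few reads carries a large counting error, which the SD includes. Some genes of the pathway are not reported here.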

Additional observations from a re-analysis of the deposited data

Results flagged for a closer look

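A library stood far from the other 5 of its subtype, by Dixon's test at the 95% level, for 11 of 148 sets of 6 values, where chance gives about 7.4. In EXC replicate 3, Fdft1 was lowest at 11.8 CPM (next 32.2), Scap was lowest at 20.5 CPM (next 43.2), and Insig2 was highest at 202 CPM (next 71.0). In EXC replicate 6, Apoe was highest at 165 CPM (next 30.0), Abca1 at 41.1 (next 22.8), and the sum of the 4 transport and turnover genes at 281 (next 126). Hsd17b7 was highest in EXC replicate 5, at 83.3 CPM. In PV replicate 4, Srebf1 was highest at 34.4 CPM and Msmo1 at 29.6 CPM, the latter against the low level of PV. Cyp46a1 was highest of VIP in replicate 5, at 31.6 CPM, still below the lowest library of every other subtype. Idi1 was highest of PV in replicate 3, at 0.419 CPM, which is 1 read.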

How the results depend on the processing

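In the comparisons with a mean, 35 calls of single genes were tried under 12 other settings and 24 fits that each left out 1 library, and 23 kept direction and threshold in each setting that could be fitted. The calls lost with single settings included Pmvk, Ggps1, Mvd, Fdps, Cyp51, Insig1, Srebf1, Abca1 and Cyp46a1 in PV, Fdps in VIP, and Srebf2 and Tm7sf2 in EXC. No paired analysis was possible because the labels carry no replicate numbers. With the pool as a covariate, which rests on EXC replicate 3 to join the pools, 9 folds reversed: Srebf2 -1.07, Insig2 0.91, Scap -0.78 and Cyp46a1 -0.65 in EXC, Insig2 1.85 and Scap -1.36 in PV, and Acly 0.78, Insig2 -1.26 and Scap 1.25 in SST. That fit called 15 genes lower in EXC (8 in the reported fit), 1 higher in PV (5; the 1 was Insig2 and none of the 5 was kept), 5 higher and 1 lower in SST (1 and 0), 1 lower in SST against EXC (0), 1 higher in PV against SST (2), 2 higher in PV against VIP (4) and 3 higher in SST against VIP (1), and 2729 of all genes in PV (6091) and 2627 in VIP (6899). Genes lower in SST numbered 1 with DESeq2 or upper-quartile factors or the filter at 5 CPM, and 2 with DESeq2's Wald test. Higher in PV against SST numbered 4 with those 4 settings and without the sex term. Higher in PV against VIP numbered 2 with DESeq2 factors and without the filter. Without the filter 2 were higher in EXC, 1 lower in SST against EXC and 2 lower in VIP against EXC, and without the sex term 2 were lower in VIP. POOL7098 alone gave 4 higher in SST against VIP. Without EXC replicate 3 and SST replicate 5, 5 were lower in PV against EXC (3), 1 in SST against EXC and 2 in VIP against EXC. Without EXC replicates 3 and 6, 2 were lower in SST, 2 in VIP, 1 in SST against EXC and 2 in VIP against EXC, and 4 higher in PV against SST and 7 in PV against VIP. Without PV replicates 1 and 6, 6 were lower in PV (10), 2 in VIP and 2 in PV against SST (6). Leaving out 1 library gave 0 to 1 higher in EXC (0 without EXC replicate 5), 3 to 6 higher in PV (3 without PV replicate 4 or SST replicate 3), 0 to 1 lower in SST (1 without EXC replicate 5 or 6 or PV replicate 2) and 1 to 2 lower in VIP (2 without EXC replicate 6, PV replicate 4 or VIP replicate 3 or 5). The median fold of all genes was -0.39 in PV and 0.20 in VIP without the filter, and -0.23, 0.15 and 0.13 in PV, SST and VIP with the pool, where it was -0.08 in PV and 0.04 in VIP as reported. The cause of these changes was not tested, and the numbers of all genes called are given here for the pool fit alone. Depth limits Idi1, Fdps, Mvd, Mvk, Tm7sf2 and Ebp, which had the fewest reads, and PV throughout.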

Other observations

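Among the 6 VIP libraries, several of these genes varied with the share of mitochondrially encoded reads and with marker sums of other cells, a pattern noticed after the values were seen and not tested. Replicates 1, 3 and 6 had shares of 1.80%, 5.83% and 4.81%, and replicates 2, 4 and 5 had 14.6%, 14.2% and 16.6%. In the same order, the summed excitatory markers were 337, 335 and 331 CPM against 918, 564 and 799, the oligodendrocyte markers 61.8, 119 and 59.7 against 354, 282 and 741, and the astrocyte markers without Slc1a2 48.9, 88.8 and 57.4 against 147, 143 and 141, with no overlap. Cyp51 stood at 144, 121 and 109 CPM against 65.0, 87.1 and 75.4, and Insig2 at 115, 116 and 130.5 against 63.3, 77.7 and 72.3. Srebf2 ran the other way, at 63.9, 72.5 and 71.8 CPM against 139, 101 and 117, as did Scap, at 17.7, 25.7 and 30.4 against 43.1, 37.5 and 36.1. The values of these 4 genes did not overlap between these samples. Stard4, Lss, Hsd17b7, Abca1 and Srebf1 were likewise higher without overlap in replicates 1, 3 and 6, and Acly was lower there without overlap. How many of all genes split in this way was not counted, so the split is not shown to be particular to these genes. Hmgcs1, at 151, 153 and 152 CPM against 117, 140.2 and 172, and Msmo1, at 63.5, 58.5 and 71.4 against 37.0, 48.2 and 67.2, did overlap. Replicates 1 and 3 are the VIP libraries of POOL7098 and replicate 6 lies in POOL7099 with replicates 2, 4 and 5.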
